A study of Mus musculus with 8 samples.

Results

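The genes described are 7 chemokine receptors of leukocytes, Cx3cr1, Cxcr2, Cxcr3, Cxcr4, Ccr1, Ccr2 and Ccr7. They were taken by name from the 18193 genes measured on 8 expression arrays, through every probe set that the platform annotation pairs with 1 of these symbols alone, which gave 12 probe sets. The arrays held total RNA of CD11b+ cells in 4 groups with 2 arrays each: NOD.Idd3 cells with peptidoglycan (PGN), NOD.Idd3 cells unstimulated, NOD cells with PGN, and NOD cells unstimulated. PGN, a polymer of the bacterial cell wall, was given at 5 µg/ml for 4 h at 37 °C, and unstimulated cells had medium alone. NOD mice develop autoimmune diabetes without induction, and NOD.Idd3 mice share that background but differ at the diabetes locus Idd3 on chromosome 3. All groups are labelled as CD11b+ cells. CD11b is the integrin subunit encoded by Itgam and marks monocytes, macrophages, neutrophils and some NK and dendritic cells. The labels call the replicates biological, but do not say whether they came from separate mice, pools or cultures, nor how the cells were selected, their tissue or the age of the mice. The p-values therefore measure only the spread between these samples, and how far it covers differences between mice is not known.

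Chemokine receptors span the membrane, couple to inhibitory G proteins and steer leukocytes along gradients of small secreted proteins, the chemokines. Cells that meet microbial products commonly change which receptors they carry, and in dendritic cells a loss of receptors for inflammatory chemokines together with a gain of Ccr7 accompanies the move to lymph nodes. The 7 genes fall into receptors for patrolling and granulocyte chemokines (Cx3cr1, Cxcr2), receptors for inflammatory CC chemokines (Ccr1, Ccr2), the lymph node homing receptor (Ccr7), a receptor best known on activated T and NK cells (Cxcr3) and the receptor that holds cells in bone marrow (Cxcr4). None lies on chromosome 3. In assembly GRCm38.p6 Cxcr2 and Cxcr4 are on chromosome 1, Ccr7 on chromosome 11, Cxcr3 on chromosome X, and Cx3cr1, Ccr1 and Ccr2 on chromosome 9, where Ccr1 (123962126 to 123968692) ends 133226 bases before Ccr2 (124101918 to 124109140).

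The start regions of 3 of the 4 genes that changed with PGN are shown because they are the members whose RNA moved: Cx3cr1 and Cxcr2 fell, and Ccr1 rose. Each is 300 bases of RefSeq sequence, build GRCm38.p6, written 5′ to 3′ on the gene's own strand, from 250 bases before to 50 after the annotated start, and capitals mark a match to a searched motif. RefSeq start regions were matched for 6 of the 7 genes, and Ccr7 is named only.
Cx3cr1 (chr9:120068247-120068546, minus strand): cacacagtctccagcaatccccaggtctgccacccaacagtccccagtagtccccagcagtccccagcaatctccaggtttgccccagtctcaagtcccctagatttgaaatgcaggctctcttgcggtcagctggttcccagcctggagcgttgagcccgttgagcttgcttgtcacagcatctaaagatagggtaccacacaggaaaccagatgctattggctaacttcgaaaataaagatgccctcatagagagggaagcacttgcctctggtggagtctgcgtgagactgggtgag
Cxcr2 (chr1:74153744-74154043, plus strand): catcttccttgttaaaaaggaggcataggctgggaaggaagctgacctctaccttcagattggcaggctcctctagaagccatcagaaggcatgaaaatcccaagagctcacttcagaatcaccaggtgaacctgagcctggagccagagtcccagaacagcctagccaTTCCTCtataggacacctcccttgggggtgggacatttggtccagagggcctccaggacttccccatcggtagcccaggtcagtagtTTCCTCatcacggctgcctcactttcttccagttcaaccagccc
Ccr1 (chr9:123968643-123968942, minus strand): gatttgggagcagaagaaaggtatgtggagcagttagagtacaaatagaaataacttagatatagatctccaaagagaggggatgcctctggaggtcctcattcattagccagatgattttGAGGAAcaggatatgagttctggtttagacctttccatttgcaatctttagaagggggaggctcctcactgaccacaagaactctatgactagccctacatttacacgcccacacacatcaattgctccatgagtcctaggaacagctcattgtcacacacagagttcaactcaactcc
The motifs were searched on both strands by their letters: GAGGAA, a core read by PU.1 and other ETS factors of myeloid cells, the C/EBP motif TTGCNNAA, the AP-1 motif TGANTCA and the TATA box TATAAA. The ETS core was found in Cxcr2 on the minus strand at -81 to -76 and at 7 to 12 relative to the start, and in Ccr1 on the plus strand at -129 to -124. It was in 28.3% of all 32851 RefSeq start regions of this length. The Cx3cr1 window held no match to any of the 4 motifs, which says only that these letters are not in it. The shares of all windows with a match were 10.8% for C/EBP, 7.81% for AP-1 and 13.6% for the TATA box. None of these 3 was in the Cxcr2 or Ccr1 window. The windows of genes that did not pass for PGN, not shown, also held matches. Cxcr3 had the ETS core on the minus strand at -14 to -9. Cxcr4 had the TATA box at -30 to -25 on the plus and -32 to -27 on the minus strand. The Ccr2 window held no match. It runs from 124101933 to 124102232, within the span given above for Ccr2 (from 124101918), so the bases before that span were not searched. A match is a description of the sequence and not a measured binding site.

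The values are intensities that were normalised by the authors, given here as log2 levels. A log2 level of 1 probe set is not comparable with that of another, so levels are set against each other only within a probe set. Summed intensities of marker lists are the exception, and are compared only between groups for the same list. Such a sum rests mostly on the brightest probe sets of its list and need not describe the other genes of the list. The median over all probe sets was 5.42 to 5.50 per array, and the 25th percentile was 3.84 to 4.05, which is given only as a guide to low signal. All 9 genes of a list for CD11b+ myeloid identity (among them Itgam, Itgb2, Csf1r and Lyz2) were measured, none was under the array medians on all arrays, and none passed the test for PGN. Their summed intensity was 70010 to 72230 with PGN and 75690 to 79680 unstimulated in NOD.Idd3 cells, and 70960 to 74900 with PGN and 84340 to 84530 unstimulated in NOD cells. The sum was lower with PGN in each strain without overlap, and its part in the receptor changes was not tested. Differences were tested with limma over all genes, and "rose" or "fell" is used for a Benjamini-Hochberg adjusted p under 0.05. In bulk RNA, fewer cells of a type and less RNA per cell cannot be told apart. The plot of levels by array shows all 7 genes.

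**Figure D1:**
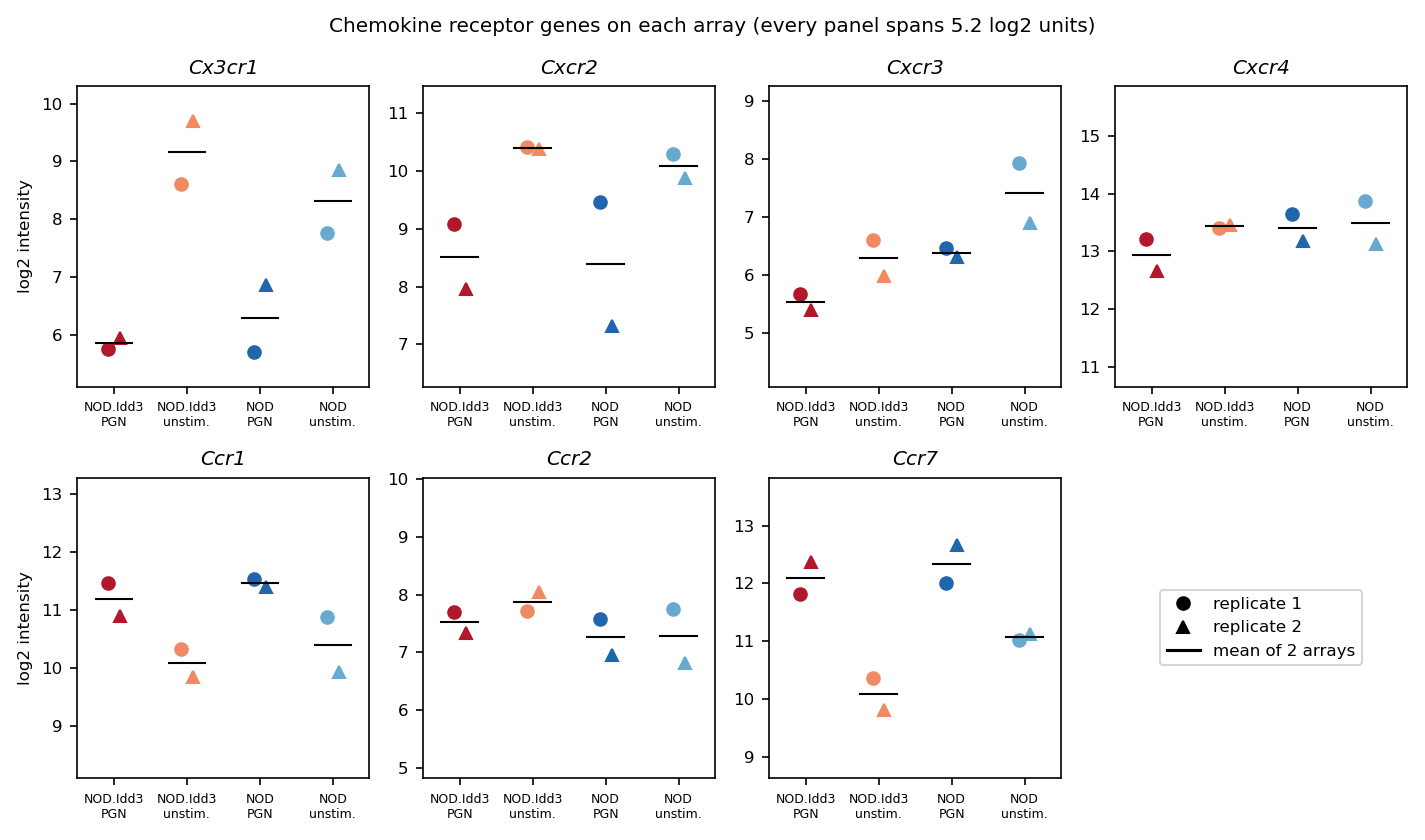
Log2 intensity of the brightest probe set of each of the 7 genes (y axis) in the 4 groups (x axis); a circle is replicate 1, a triangle replicate 2, and the bar the mean of the 2 arrays. The PGN arrays of Cx3cr1 and Cxcr2 lie below every unstimulated array, and those of Ccr1 and Ccr7 lie above.

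Over both strains, 2 of the 7 genes fell with PGN (Cx3cr1 and Cxcr2), 2 rose (Ccr7 and Ccr1) and 3 did not pass (Cxcr3, Cxcr4 and Ccr2). The 4 called were 2 of 7 in each direction, where 6.4% of all genes were called lower and 4.86% higher (11.3% in either direction). The genes were chosen with earlier results of these data known, so this share is a description of the 7 and not a test. The median change of the 7 was -0.29 and that of all genes 0.05. The arrays of 4 of the 7 did not overlap between PGN and unstimulated cells, against 18% of all genes.

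Cx3cr1, the receptor for fractalkine and a marker of patrolling monocytes, had log2 levels of 5.76 and 5.95 in PGN-treated and 8.62 and 9.70 in unstimulated NOD.Idd3 cells. In NOD cells the levels were 5.71 and 6.87 with PGN and 7.77 and 8.86 unstimulated. All 4 PGN arrays were below all 4 unstimulated arrays, and 3 of the 4 were close to the array medians. The change over both strains was -2.66 ± 0.35 (SE, 4 arrays per condition, limma adjusted p = 0.00236), which is 6.33-fold lower with a 95% interval of 3.63 to 11.1. It was called without any 1 of the 8 arrays, with the adjusted p between 0.00301 and 0.0106.

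The second Cx3cr1 probe set (1450019_at) was dimmer and moved the same way. It stood at 4.36 and 4.50 with PGN and 5.61 and 6.46 unstimulated in NOD.Idd3 cells, and at 4.51 and 4.21 with PGN and 5.22 and 5.50 unstimulated in NOD cells. Its change was -1.30 ± 0.21 (limma adjusted p = 0.00530 over all probe sets). Its PGN levels lay close to the 25th percentile of the arrays, so the size of its change has a floor near by. Of 10 markers of non-classical monocytes, which carry Cx3cr1, 1 rose (Nr4a1, which stimuli of many kinds induce) and 3 fell (Spn, Itgal and Adgre4). Their summed intensity was 30740 to 37680 with PGN and 33180 to 38230 unstimulated in NOD.Idd3 cells, and 33530 to 35040 with PGN and 32090 to 37200 unstimulated in NOD cells. These ranges overlapped, no marker was under the array medians on all arrays, and the part of such cells in the fall of Cx3cr1 was not tested.

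Cxcr2, the receptor through which neutrophils follow Cxcl1, Cxcl2 and Cxcl5, had levels of 9.08 and 7.95 in PGN-treated and 10.42 and 10.37 in unstimulated NOD.Idd3 cells. In NOD cells it had 9.47 and 7.31 with PGN and 10.29 and 9.88 unstimulated. The unstimulated arrays lay close together, and the PGN arrays were spread more widely and were all lower. Replicate 2 was the lower of each PGN pair. The change was -1.79 ± 0.44 (adjusted p = 0.0330), or 3.45-fold lower with a 95% interval of 1.73 to 6.89. Within replicate 1 it was -1.34 in NOD.Idd3 and -0.82 in NOD cells, and within replicate 2 it was -2.42 and -2.56.

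The Cxcr2 call was lost in each of 5 fits that left out 1 array. The adjusted p was 0.0788 without replicate 1 and 0.0766 without replicate 2 of unstimulated NOD, 0.0926 and 0.0914 when unstimulated NOD.Idd3 lacked its replicate 1 or 2, and 0.108 when replicate 2 of PGN-treated NOD.Idd3 was left out. Of 11 measured neutrophil markers 2 fell (Mmp8 and Mmp9), 1 rose (Il1r2) and 8 did not pass. None was under the array medians on all arrays. Their summed intensity was 119200 to 121200 with PGN and 126200 to 165400 unstimulated in NOD.Idd3 cells, and 129400 to 130000 with PGN and 137700 to 138700 unstimulated in NOD cells. The sum was lower with PGN in each strain without overlap, and its part in the fall of Cxcr2 was not tested.

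Ccr7, the receptor for Ccl19 and Ccl21 that directs dendritic cells to lymph nodes, had levels of 11.82 and 12.38 in PGN-treated and 10.37 and 9.81 in unstimulated NOD.Idd3 cells. In NOD cells it had 12.01 and 12.66 with PGN and 11.02 and 11.12 unstimulated. All PGN arrays were above all unstimulated arrays. The change was 1.64 ± 0.22 (adjusted p = 0.00237), or 3.11-fold higher with a 95% interval of 2.21 to 4.39. Without any 1 of the 8 arrays it was 1.48 to 1.80 and was called each time, with an adjusted p of 0.0124 at most. Of 9 measured dendritic cell markers 1 rose (Relb, an NF-kB subunit gene) and 8 did not pass, and Cd209a and Xcr1 were under the array medians on all arrays. Their summed intensity was 8820 to 9793 with PGN and 7014 to 9284 unstimulated in NOD.Idd3 cells, and 12510 to 14110 with PGN and 11840 to 13840 unstimulated in NOD cells. The ranges overlapped in both strains, and the part of dendritic cells in the rise of Ccr7 was not tested.

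Ccr1, a receptor for Ccl3, Ccl5 and other inflammatory chemokines on monocytes and neutrophils, had levels of 11.47 and 10.90 in PGN-treated and 10.33 and 9.85 in unstimulated NOD.Idd3 cells. In NOD cells it had 11.53 and 11.39 with PGN and 10.87 and 9.92 unstimulated. The lowest PGN array and the highest unstimulated array were 10.90 and 10.87, so the separation was narrow. The change was 1.08 ± 0.24 (adjusted p = 0.0237, 95% interval 0.53 to 1.64). For the second probe set (1419610_at) the change was 0.63 ± 0.18, short of the threshold (adjusted p = 0.0545). Its levels were 10.63 and 10.20 with PGN and 9.89 and 9.43 unstimulated in NOD.Idd3 cells, and 10.91 and 10.81 with PGN and 10.52 and 10.18 unstimulated in NOD cells, higher with PGN within each strain.

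The Ccr1 call was lost in each of 5 fits without 1 array. The adjusted p was 0.0587 without replicate 2 of unstimulated NOD, 0.0653 and 0.0578 when PGN-treated NOD lacked its replicate 1 or 2, 0.0919 without replicate 2 of unstimulated NOD.Idd3 and 0.0748 when replicate 1 of PGN-treated NOD.Idd3 was left out. The change stayed between 0.84 and 1.32 over all 8 such fits.

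**Figure D2:**
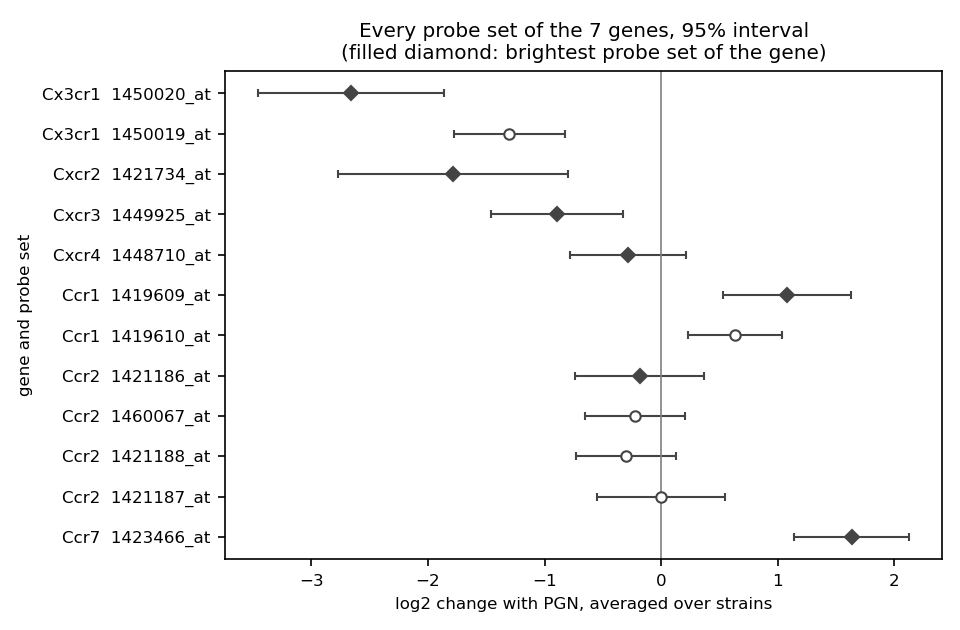
Log2 change with PGN averaged over strains (x axis) with its 95% interval for each of the 12 probe sets of the 7 genes (y axis), from the fit over all probe sets. The 2 Cx3cr1 probe sets lie below 0 and the 2 Ccr1 probe sets above, with the dimmer of each pair nearer to 0, and the 4 Ccr2 intervals hold 0.

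Cxcr3, the receptor for Cxcl9, Cxcl10 and Cxcl11, had levels of 5.68 and 5.39 in PGN-treated and 6.60 and 5.98 in unstimulated NOD.Idd3 cells. In NOD cells it had 6.46 and 6.30 with PGN and 7.94 and 6.90 unstimulated. The PGN arrays were lower within each strain, while PGN-treated NOD and unstimulated NOD.Idd3 arrays overlapped. The change was -0.90 ± 0.25 and did not pass (adjusted p = 0.0532), but it passed with the replicate number as a block (adjusted p = 0.00986) and without replicate 2 of unstimulated NOD (0.0172). Within replicates 1 and 2 it was -0.92 and -0.59 in NOD.Idd3 cells and -1.48 and -0.59 in NOD cells.

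The PGN levels of Cxcr3 in NOD.Idd3 cells were at about the array medians. Of 9 measured T cell markers 1 rose (Il7r) and 1 fell (Cd3d), with summed intensity of 8104 to 9413 with PGN and 7826 to 8270 unstimulated in NOD.Idd3 cells and 10000 to 10130 with PGN and 8508 to 10110 unstimulated in NOD cells. Of 7 measured NK cell markers 1 rose (Gzmb) and 1 fell (Prf1), with sums of 1022 to 2703 with PGN and 1094 to 1849 unstimulated in NOD.Idd3 cells and 1099 to 2119 with PGN and 1232 to 2264 unstimulated in NOD cells. Cd8b1 and Ncr1 were under the array medians on all arrays. The part of these cells in the Cxcr3 signal was not tested.

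Cxcr4, the receptor for Cxcl12, had levels of 13.22 and 12.65 in PGN-treated and 13.41 and 13.46 in unstimulated NOD.Idd3 cells. In NOD cells it had 13.64 and 13.18 with PGN and 13.86 and 13.12 unstimulated. The groups overlapped over both strains. The change was -0.29 ± 0.22 (adjusted p = 0.468, 95% interval -0.79 to 0.21), so a fall of up to 0.79 on the log2 scale lies within the interval.

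Ccr2, the receptor for Ccl2 that lets monocytes leave the bone marrow, had levels of 7.70 and 7.34 in PGN-treated and 7.72 and 8.04 in unstimulated NOD.Idd3 cells. In NOD cells it had 7.57 and 6.96 with PGN and 7.75 and 6.81 unstimulated. The 2 replicates of unstimulated NOD differed by more than any pair of group means. The change was -0.18 ± 0.25 (adjusted p = 0.695, 95% interval -0.74 to 0.37). The other 3 probe sets changed by -0.23, -0.30 and -0.0017, and none passed. Those 3 had group means between 4.39 and 6.01. Of 5 measured classical monocyte markers none passed. Their summed intensity was 22750 to 26900 with PGN and 27720 to 37990 unstimulated in NOD.Idd3 cells, without overlap, and 24420 to 27080 with PGN and 27300 to 28290 unstimulated in NOD cells, also without overlap.

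The PGN effect was next taken in each strain, with 2 arrays per group. In NOD.Idd3 cells Cx3cr1 fell by 3.30 ± 0.50 (adjusted p = 0.0140, 9.87-fold lower) and Ccr7 rose by 2.01 ± 0.31 (adjusted p = 0.0143, 4.03-fold higher). The other 5 did not pass, so 1 of 7 was called in each direction, where 1.89% of all genes were called higher and 1.25% lower (3.14% in either direction). In NOD cells none of the 7 passed, where 3.94% of all genes were called, and 5 of 7 had an unadjusted p under 0.05 (19.2% of all genes). The changes in NOD cells were -2.02 ± 0.50 for Cx3cr1 (adjusted p = 0.0632) and 1.27 ± 0.31 for Ccr7 (adjusted p = 0.0593). Cxcr2 changed by -1.88 ± 0.62 in NOD.Idd3 and -1.69 ± 0.62 in NOD cells, and Ccr1 by 1.10 ± 0.34 and 1.06 ± 0.34, none of which passed. The arrays of all 7 genes did not overlap between PGN and unstimulated NOD.Idd3 cells (47.9% of all genes), and those of 5 did not in NOD cells (45.2%).

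With the replicate number as a block 4 of 7 genes were called in each strain. In NOD cells these were Cx3cr1 (adjusted p = 0.00476), Ccr1 (0.0269), Ccr7 (0.0368) and Cxcr3 (0.0384), and in NOD.Idd3 cells Ccr1 (0.0284) and Cxcr2 (0.0416) were added to Cx3cr1 and Ccr7. The Cx3cr1 call in NOD.Idd3 cells was lost without replicate 2 of unstimulated NOD.Idd3 (adjusted p = 0.121) and without replicate 1 (0.0588) or 2 (0.0909) of PGN-treated NOD.Idd3. In NOD cells single calls appeared when 1 array was left out. Without replicate 1 of unstimulated NOD the adjusted p was 0.0447 for Cx3cr1 and 0.0438 for Ccr1, and without replicate 1 of PGN-treated NOD it was 0.0304 for Cxcr2. Cxcr2 in NOD.Idd3 cells passed without either PGN-treated NOD array (0.0422 each). The Ccr7 call in NOD.Idd3 cells was lost without replicate 2 of unstimulated (0.137) or of PGN-treated NOD.Idd3 (0.111).

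**Figure D3:**
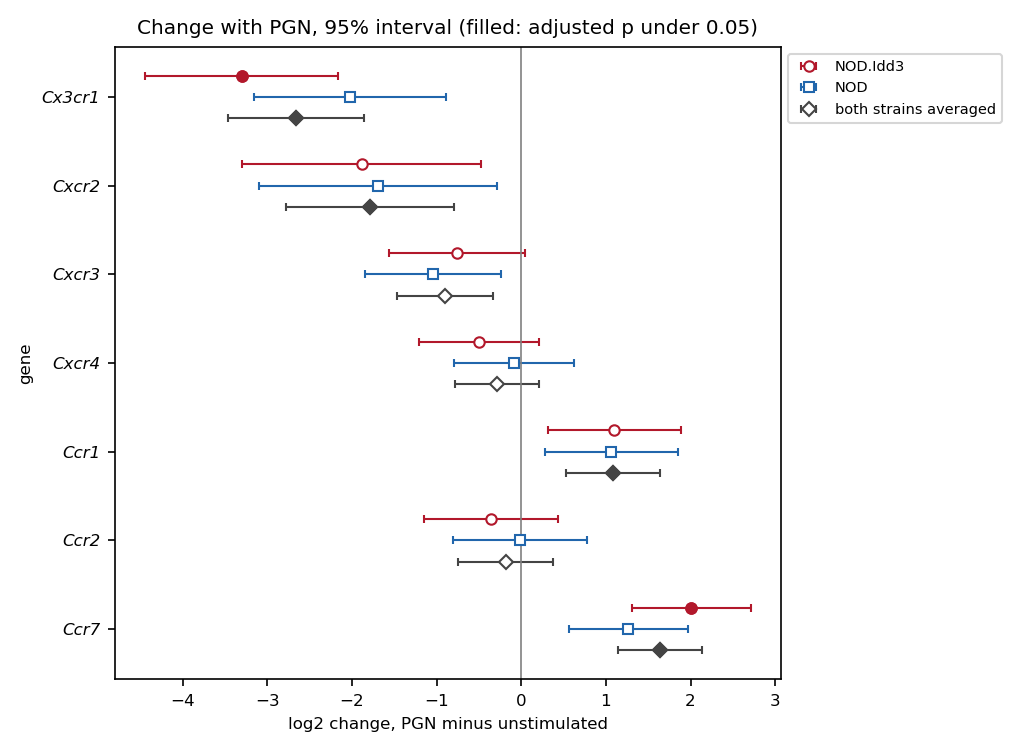
Log2 change with PGN (x axis) with its 95% limma interval for each of the 7 genes (y axis), in NOD.Idd3 cells, in NOD cells and averaged over both strains; filled symbols have an adjusted p under 0.05. The intervals of the 2 strains overlap for all 7 genes.

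The strains were then compared for their response to PGN (NOD.Idd3 minus NOD). For Cx3cr1 it was -1.28 ± 0.71, with a 95% interval of -2.89 to 0.33, and 0.75 ± 0.44 for Ccr7, with an interval of -0.25 to 1.74. Both responses were larger in NOD.Idd3 than in NOD cells by value, and neither difference passed (adjusted p = 1.00 for both). For the other 5 the difference lay between -0.41 (Cxcr4) and 0.28 (Cxcr3), with Ccr1 at 0.04 ± 0.49. None of the 7 was called, as was none of all genes (0%), and 0 of 7 had an unadjusted p under 0.05 (1.73% of all genes). By replicate number, the PGN effects on Cx3cr1 were -2.85 in NOD.Idd3 and -2.06 in NOD cells in replicate 1, and -3.75 and -1.99 in replicate 2. These are the values behind the difference that did not pass, and not a separate test of it. For Ccr7 the effects were 1.45 and 1.00 in replicate 1, and 2.57 and 1.53 in replicate 2.

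The last comparison was of the strains at a given condition. Cxcr3 was lower by value in NOD.Idd3 cells in both conditions, by -0.85 ± 0.35 with PGN and -1.13 ± 0.35 unstimulated, with no overlap of arrays in either. Over all 4 arrays of each strain, none of the 7 genes was free of overlap (2.85% of all genes). Within a condition, arrays did not overlap for 1 of the 7 genes with PGN (34.8% of all genes) and for 3 of the 7 unstimulated (28.3%). These counts use the brightest probe set of each gene. Averaged over conditions the Cxcr3 difference was -0.99 ± 0.25 (4 arrays per strain), with an unadjusted p of 0.00355 and an adjusted p of 0.572, and it did not pass. With the replicate block its adjusted p was 0.125. By replicate number it was -0.78 and -0.91 with PGN and -1.34 and -0.92 unstimulated.

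Ccr7 stood at 10.09 ± 0.40 in unstimulated NOD.Idd3 and 11.07 ± 0.07 in unstimulated NOD cells (SD, n = 2 each), a difference of -0.98 ± 0.31 (SE) that did not pass (limma adjusted p = 1.00). With PGN it was 12.10 ± 0.39 and 12.34 ± 0.45, a difference of -0.24 ± 0.31. Cx3cr1 was higher by value in unstimulated NOD.Idd3 cells by 0.85 ± 0.50, and with PGN the difference was -0.44 ± 0.50. The 4 probe sets of Ccr2 all had higher means in NOD.Idd3 than in NOD cells averaged over conditions, by 0.43 to 0.59, and none passed. The limma unadjusted p was 0.115 for the brightest and 0.0364 to 0.0436 for the others. Those others were dim, with group means between 4.39 and 6.01. All 4 read the same gene on the same arrays, so their shared direction is not independent evidence. The second probe set of Ccr1 (1419610_at) was lower by value in NOD.Idd3 cells, without overlap of arrays in either condition. Averaged over conditions its difference was -0.57 ± 0.18 and did not pass (limma unadjusted p = 0.0112, adjusted p = 0.580 over all probe sets). No gene of the 7, and none of all genes (0%), was called in any of the 3 strain comparisons. By the brightest probe set of each gene, 2 of 7 had an unadjusted p under 0.05 averaged over conditions (Cxcr3 and Ccr7, 6.46% of all genes). The same 2 of 7 did so unstimulated (3.36%) and 1 of 7 with PGN (Cxcr3, 5.41%).

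Summed intensities of several marker lists, and 1 of 2 RNA quality controls, were also apart between the strains. Dendritic cell markers (9 measured, median strain difference -0.31) and T cell markers (9 measured, median -0.07) have their sums given above. Both sums were lower in NOD.Idd3 than in NOD cells without overlap in both conditions. The T cell median was near that of all genes (-0.03). The T cell sum rests mostly on its brightest markers, Il7r and Cd3d, which differed by -0.44 and 0.33. Cd3e differed by 0.19 and Cd4 by -0.77, so the T cell markers did not share a direction. Macrophage markers (10 measured) had a median strain difference of -1.25, with summed intensity of 8307 to 9505 with PGN and 7689 to 8708 unstimulated in NOD.Idd3 cells and 12910 to 13280 with PGN and 11610 to 11760 unstimulated in NOD cells. B cell markers (7 measured) had a median of -1.10, with sums of 664.4 to 1035 with PGN and 791.5 to 1400 unstimulated in NOD.Idd3 cells and 1291 to 2284 with PGN and 1838 to 4779 unstimulated in NOD cells. Platelet markers (5 measured, median -0.37), whose sums are given below, also had lower sums in NOD.Idd3 than in NOD cells without overlap in both conditions. None of these markers passed for strain, and Vsig4 and Pax5 were under the array medians on all arrays. The Gapdh 3′ control exceeded its 5′ control by 0.72 to 0.80 (log2) on NOD.Idd3 and by 0.88 to 1.16 on NOD arrays, without overlap. For Actb the same difference was 0.22 to 0.46 on NOD.Idd3 and 0.43 to 0.58 on NOD arrays, with overlap. The part of these in the Cxcr3 and Ccr7 values was not tested.

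**Figure D4:**
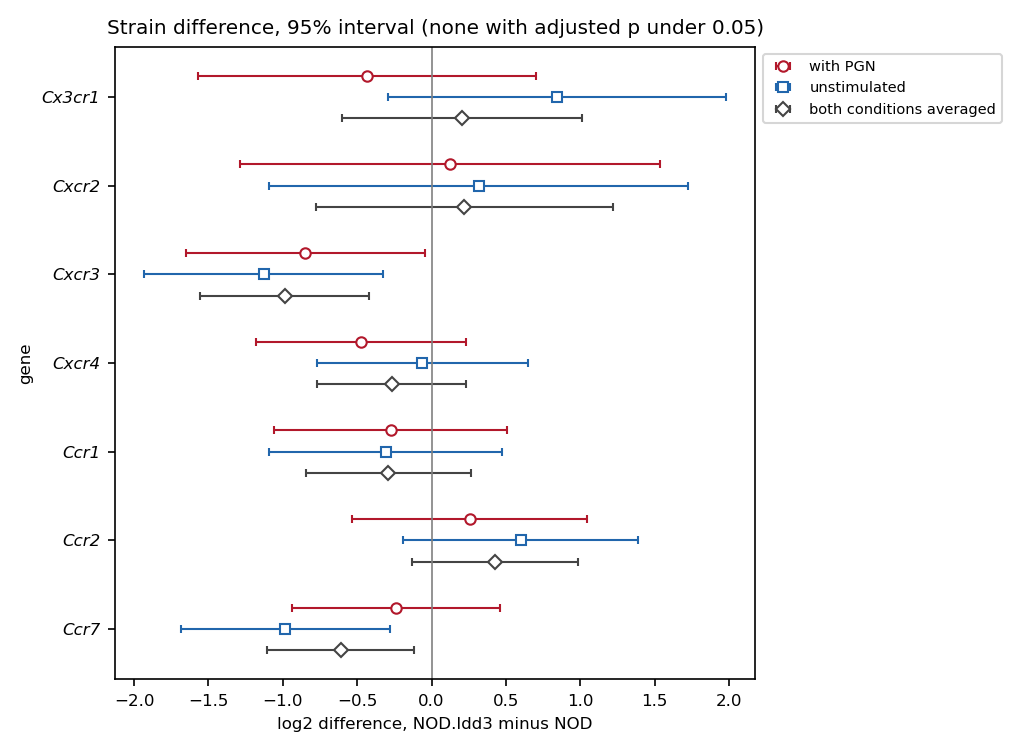
Log2 difference between strains, NOD.Idd3 minus NOD (x axis), with its 95% limma interval for each of the 7 genes (y axis), with PGN, unstimulated and averaged over conditions. The Cxcr3 intervals lie below 0 in all 3, those of Ccr7 do so unstimulated and averaged, and no difference has an adjusted p under 0.05.

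The order of the 4 groups differed between genes. For Cx3cr1 it ran upward through NOD.Idd3 PGN (5.86), NOD PGN (6.29), unstimulated NOD (8.31) and unstimulated NOD.Idd3 (9.16), where only the step between NOD PGN and unstimulated NOD had no overlap of arrays. For Ccr7 it ran through unstimulated NOD.Idd3 (10.09), unstimulated NOD (11.07), NOD.Idd3 PGN (12.10) and NOD PGN (12.34), with an overlap only at the last step. For Cxcr3 it ran through NOD.Idd3 PGN (5.53), unstimulated NOD.Idd3 (6.29), NOD PGN (6.38) and unstimulated NOD (7.42), with an overlap at the middle step. Ccr1 and Cxcr2 had no overlap between their PGN and unstimulated groups, the 2 unstimulated groups of Cxcr2 differed by 0.32 without overlap, and the 2 PGN groups overlapped for both genes. For Cxcr4 every neighbouring pair overlapped, and for Ccr2 every pair but the highest (NOD.Idd3 PGN at 7.52 and unstimulated NOD.Idd3 at 7.88).

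Genes around these receptors were described from fixed lists for the PGN effect averaged over strains, with 11.3% of all genes called and a median change of 0.05 as the background. Of 19 measured ligands of the 7 receptors 4 rose, 1 fell and 14 did not pass (median 0.26). Ccl4 rose by 2.77 ± 0.34 (adjusted p = 0.00158), Ccl3, a ligand of Ccr1, by 1.33 ± 0.24 and Ccl2, the ligand of Ccr2, by 1.13 ± 0.20. Cxcl1, a ligand of Cxcr2 that was named after its value was seen, rose by 2.66 ± 0.60 (adjusted p = 0.0244). Ppbp, another Cxcr2 ligand and a platelet gene, fell by 2.67 ± 0.46. Of 5 platelet markers 1 fell, Pf4, and Gp1bb was under the array medians on all arrays. Their summed intensity was 730 to 932.3 with PGN and 1326 to 2221 unstimulated in NOD.Idd3 cells, and 1120 to 1182 with PGN and 2415 to 3555 unstimulated in NOD cells, and its part in the fall of Ppbp was not tested. The remaining measured ligands, among them Cx3cl1 and Cxcl12, did not pass. Ccl19 and Ccl21a, the listed ligands of Ccr7, were not among the genes measured, so no ligand of Ccr7 was read.

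Of 15 other measured genes, from a list of chemokine receptors and related receptors, 2 rose and 1 fell (median 0.15). The gene that fell is a related receptor. Cmklr1, the chemerin receptor, fell by 1.28 ± 0.22 (adjusted p = 0.00730). Ccrl2, which binds chemerin, rose by 0.71 ± 0.16 (adjusted p = 0.0252). Cxcr5, which guides B cells into follicles, rose by 1.68 ± 0.44 (adjusted p = 0.0440), with arrays that overlapped between the conditions. Of 9 other chemoattractant receptors 2 fell and none rose (median -0.29): the sphingosine phosphate receptor S1pr4 (-1.89 ± 0.34, adjusted p = 0.00952) and the leukotriene receptor Ltb4r1 (-0.94 ± 0.21, adjusted p = 0.0211, with arrays that overlapped).

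Of 29 measured genes of receptor coupling and desensitization 9 fell, 3 rose and 17 did not pass (median -0.23). The G protein regulators Rgs2 and Rgs18, which shorten receptor signals, both fell. Rgs2 fell by 2.72 ± 0.22 (adjusted p = 0.000311). Rgs18 fell by 2.47 ± 0.39 (adjusted p = 0.00477). Pik3cg, the kinase that chemokine receptors engage through G protein beta-gamma subunits, fell by 1.60 ± 0.19 (adjusted p = 0.00148), and the receptor kinase gene Grk5 fell by 1.05 ± 0.15 (adjusted p = 0.00350). The 3 that rose, named after their values were seen, were Rgs1 (1.48 ± 0.37) and the regulatory subunits of the Pik3cg kinase, Pik3r5 (0.97 ± 0.16) and Pik3r6 (0.72 ± 0.14).

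**Figure D5:**
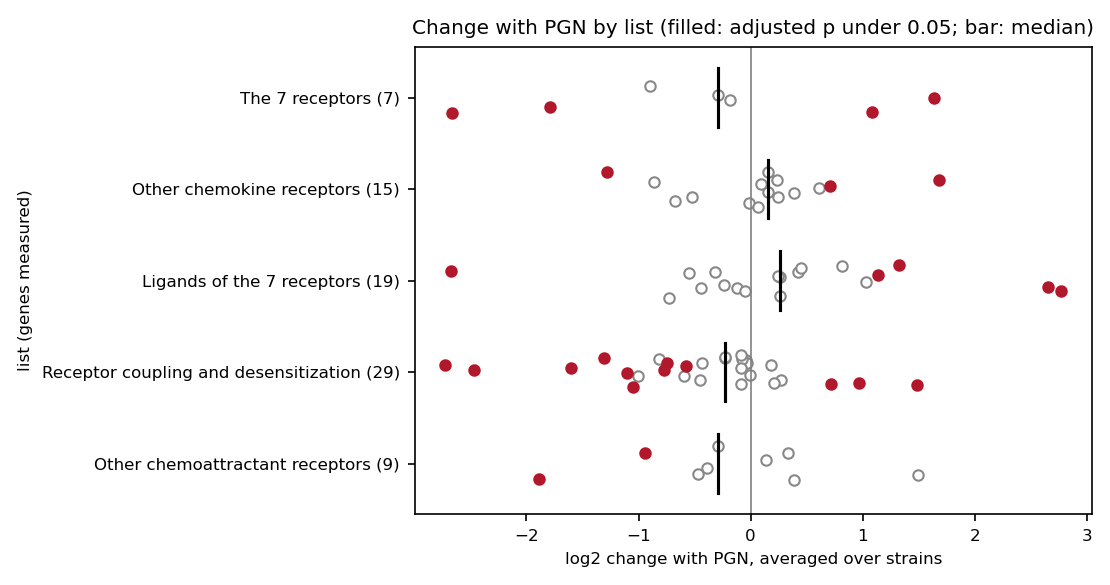
Log2 change with PGN averaged over strains (x axis) for the genes of each list (y axis, number measured in brackets, points spread vertically for legibility); filled points have an adjusted p under 0.05 and the bar is the median. The 7 receptors have called genes on both sides of 0, and 9 of the 12 called coupling genes lie below 0.

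The 3 genes most like each receptor were taken by Pearson r over the 8 arrays, among 5111 genes at or above the 40th percentile of mean level whose own levels ranged by at least 1. All 7 receptors ranged by at least 1, from 1.21 (Cxcr4) to 3.99 (Cx3cr1). These r are descriptions with no test, and the arrays share the 4 groups, so any gene that changes with PGN can score high. The genes named are also the highest of 5111 over only 8 arrays, so the choice alone can give a high r, for any receptor. For Cx3cr1 they were Glo1, Actn1 and Tcf12 (each 0.99), and for Cxcr2 Dennd4c (0.99), Cd36 and Mettl7a2 (each 0.98). For Ccr7 they were Acp5, Chst11 and Dtx4 (each 0.99), and for Ccr1 Gla, Ezr and Crtc2 (each 0.99). For Cxcr4, which did not pass for PGN, they were Klf3, Pnrc2 and Esco1 (0.98, 0.98 and 0.97). For Ccr2 they were Igtp (0.96) and Ifi47 (0.94), both interferon-inducible GTPase genes, and Ppfia4 (0.91). For Cxcr3 they were Tgif2 (0.95), the platelet chemokine gene Pf4 (0.92) and Tctex1d2 (0.91).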

How the data were processed

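Total RNA of CD11b+ cells was measured on 8 single-channel arrays, 2 per group, grouped and numbered as their labels say. The deposited table gives a linear intensity for each probe set on each array (3.97 to 42906). The submitters' processing notes name RMA, whose log2 values had thus been raised back to intensity. The version and chip definition were not stated. The log2 of each intensity was taken, with no further normalization or filter.

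Of 45101 probe sets 34945 had exactly 1 symbol in the platform annotation, and each of 18193 genes was represented by its brightest probe set by mean over the 8 arrays. Contrasts of the 4 group means were tested with limma 3.58.1 (lmFit and eBayes) in R 4.3.3, with 4 residual and 4.69 prior degrees of freedom, and adjusted over all genes. Every probe set of the members was also read in a fit over all probe sets. The step was tested on simulated data with independent noise on each array. The simulation held no difference shared by replicates, so it does not bear on such a difference in these data. The number of arrays limits the precision.

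Members and lists were chosen with earlier results of these data known. All 7 members were named. From each list up to 4 genes with the smallest p among those called for PGN averaged over strains were named, with any other named gene marked as such. The replicate numbers were taken as pairing the arrays, because the replicate 1 arrays share a date in the array names and the differences between replicates correlated across genes at r of 0.17 to 0.42 over the 6 pairs of groups. The main fit has no such term. The alternatives were that replicate block, the suffix RR1 of the array names as a term, a variance trend, removal of genes under the 40th percentile, the mean of a gene's probe sets, a test of every probe set, leaving out probe sets named _x_at or _s_at, a second quantile normalization, weights for arrays, fits of the 4 arrays compared, and leaving out each array. The weights were equal for both arrays of each group, so they weighted groups and could not set a poorer array apart.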

Additional observations from a re-analysis of the deposited data

How the results depend on the processing

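The number of the 7 receptors called for PGN averaged over strains was 4, and 2 to 3 in fits that left out 1 array. It was 5 with the replicate block, where Cxcr3 was added, and 3 with the array-name suffix as a term, where Ccr1 was lost (adjusted p = 0.0582). For PGN in NOD cells it was 0 of the 7, 4 with the replicate block, 2 with a variance trend (Cx3cr1, adjusted p = 0.0492, and Ccr7, 0.0331) and 0 to 2 without 1 array. For PGN in NOD.Idd3 cells it was 2 of the 7, 4 with the replicate block, 1 with the array-name suffix as a term (Cx3cr1 lost, adjusted p = 0.0533), and 0 to 3 without 1 array. Cxcr2 also passed there in the fit of only the 4 arrays compared (adjusted p = 0.0441), which makes the count 3. The count was 0 in the other 4 comparisons under every alternative run. Cxcr3 also passed for PGN averaged over strains without dim genes (adjusted p = 0.0446, fewer genes tested) and with the mean of all probe sets (0.0493). The cause of the other changes was not tested. The replicate block changed no other call of the 7. The direction of the averaged PGN effect held in all 17 alternatives for Cx3cr1, Cxcr2, Cxcr3, Cxcr4, Ccr1 and Ccr7, and turned in 1 for Ccr2, which was called in none.

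Over all genes the count called for PGN averaged over strains was 2049, against 3082 with the replicate block, 3933 of all probe sets and 1111 to 2139 without 1 array. For PGN in NOD cells it was 717, against 1586 with the block, 1403 of all probe sets, 410 with array weights, 416 from the 4 arrays compared and 77 to 876 without 1 array. For PGN in NOD.Idd3 cells it was 572, against 1207 with the block, 235 with the suffix as a term, 1058 of all probe sets, 994 with array weights and 56 to 624 without 1 array. For the strain difference averaged over conditions it was 0, with 1175 genes at an unadjusted p under 0.05, and 27 with the block. With 2 arrays per group, a receptor whose difference is smaller than its interval can be missed. Low signal limits the size of a measured fall for the second probe set of Cx3cr1, whose PGN levels were near the 25th percentile of the arrays.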
